A study of Mus musculus with 33 samples.

Results

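Serine synthesis and amino acid transport were followed through 10 genes in CD8 T cells sorted from mouse skin. The genes were Phgdh, Psat1 and Psph (serine synthesis), Shmt1, Shmt2 and Mthfd2 (transfer of carbon from serine to folate), Asns and Bcat1 (asparagine synthesis and branched-chain amino acid transamination), and Slc7a5 and Slc3a2 (the 2 chains of a large neutral amino acid transporter). They were taken by symbol as rows of both deposited count tables: 10 of 18054 gene rows in the first experiment and 10 of 18052 in the second. All 10 passed the filter on low counts in both experiments, where 11588 and 12236 genes were tested. Bcat1 did so only through the GFP-positive libraries of the first experiment and the day 2 libraries of the second, the libraries where it was high, so its calls against other libraries were partly fixed by the filter. Its values are given as a description, and where it passed the test, counts of calls are given for the other 9 genes. The last section, on processing, counts all 10 genes.

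The pathway begins with 3-phosphoglycerate, an intermediate of glycolysis. PHGDH oxidises it, PSAT1 transfers an amino group to the product, and PSPH removes the phosphate to give serine. The hydroxymethyltransferases SHMT1 in the cytosol and SHMT2 in mitochondria split serine into glycine and a one-carbon unit bound to folate, which MTHFD2 oxidises further in mitochondria for purine and thymidylate synthesis. Activated T cells are known to raise this pathway when they grow and divide. They are also known to raise the transporter of leucine and other large neutral amino acids, in which the light chain SLC7A5 (LAT1) moves the amino acid and the heavy chain SLC3A2 (CD98) carries it to the cell surface.

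The 33 libraries came from mice sensitised to DNFB (dinitrofluorobenzene), a contact allergen used to model allergic contact dermatitis, and the study concerned what TA (0.01%), a glucocorticosteroid put on the skin, does to resident memory T cells (TRM). In the first experiment (17 libraries) live CD45+CD8+CD69+CD103+ TRM were sorted from Nur77GFP mice, in which GFP marks cells that lately signalled through their T cell receptor. At day 1, 24 hours after a repeat exposure to DNFB, GFP-positive and GFP-negative cells were sorted from acetone-treated and from TA-treated skin (2 libraries each), and GFP-negative cells were also sorted at day 6 (144 hours; 2 acetone, 2 TA) and at day 0, before the repeat exposure (2 TA, 3 acetone). In the second experiment (16 libraries, C57BL/6 mice, 2 per group) CD69+CD103+ TRM were sorted at day 11 and at day 42 after DNFB with acetone or TA, and at day 2 CD69+CD103+ cells and the other 3 subsets by CD69 and CD103 were sorted from untreated skin. All groups thus had been exposed to DNFB, and acetone is the comparator of TA. Age, sex and any pooling of animals are not given in the sources used here.

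The headers of the count tables carry codes in place of treatments. Day 0 acetone, the GFP state at day 1 and the day 2 CD69+CD103+ cells could be read from them. Arm I and arm II stand for the day 1 treatments, and no use was made of which was TA. Sets K, L and M are day 0 TA, day 6 acetone and day 6 TA in unknown order, sets P, Q, R and S are the 4 combinations of day 11 or 42 with acetone or TA, and subsets U, V and W are the other day 2 subsets. No treatment effect is therefore named. Replicates are lettered or numbered samples that no source ties to separate animals, so p-values measure the spread between these samples, which may be technical.

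Libraries held 2442825 to 8515297 counts in the first experiment and 2937814 to 13629838 in the second. In the first experiment the libraries of arm II and set K were the shallowest, at 2442825 to 3262545 counts. The other sets had 3488476 to 8515297 counts. Levels are counts scaled to library size (CPM). Differences are given on the log2 scale ± SE, tested by quasi-likelihood in edgeR, with p adjusted by Benjamini-Hochberg over all genes tested and called under 0.05. Reads came from the 3′ end of each transcript and were not scaled by length, so levels are compared between samples and not between genes. In bulk RNA, fewer cells with a transcript and less of it per cell cannot be told apart. T cell markers summed to 7067 to 15770 CPM in every library of the first experiment and to 7848 to 12040 in the second. Arm II GFP-negative cells (35.8 to 36.7% of counts) and set K (34.9 to 36.3%) had the largest mitochondrial shares, against 22.2 to 31.55% in the other sets of the first experiment. Both also had the lowest sums of the mononuclear phagocyte markers, 33.2 to 49.2 CPM in arm II GFP-negative cells and 21.5 to 43.0 CPM in set K, against 227 to 845 CPM in the other sets. The keratinocyte markers summed to 416 to 554 CPM in arm II GFP-negative cells, against 612 to 6086 CPM in the other sets. What part these have in the results below was not tested.

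The promoters of Asns, Mthfd2 and Psat1 are shown because these genes rose in GFP-positive cells (Asns and Mthfd2) or fell (Psat1) against day 0, as described below. The sequences are RefSeq's for GRCm38.p6, from 250 bases before to 50 after the start of the transcript, on the minus strand and written 5′ to 3′. Asns lies at chr6:7693160-7693459, Mthfd2 at chr6:83317555-83317854 and Psat1 at chr19:15925010-15925309. Psat1 has 2 windows, of which the first is shown, and the other lies at chr19:15924573-15924872. The windows of Mthfd2 and Psat1 lie inside the gene spans given below. Capitals mark TGATGNAA, the core of the element that the stress factor ATF4 binds together with C/EBP proteins.
Asns: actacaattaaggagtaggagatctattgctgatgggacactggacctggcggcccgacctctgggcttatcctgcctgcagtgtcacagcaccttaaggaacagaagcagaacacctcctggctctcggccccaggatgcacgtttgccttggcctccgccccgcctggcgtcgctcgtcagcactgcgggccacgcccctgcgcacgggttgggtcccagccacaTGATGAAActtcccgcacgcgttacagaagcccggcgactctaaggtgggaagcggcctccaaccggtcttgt
Mthfd2: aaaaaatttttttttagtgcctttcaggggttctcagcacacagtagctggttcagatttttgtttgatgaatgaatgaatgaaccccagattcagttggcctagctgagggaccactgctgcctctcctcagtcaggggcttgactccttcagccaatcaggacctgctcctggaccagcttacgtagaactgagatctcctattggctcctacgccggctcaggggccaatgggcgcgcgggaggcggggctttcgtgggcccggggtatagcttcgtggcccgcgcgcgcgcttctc
Psat1: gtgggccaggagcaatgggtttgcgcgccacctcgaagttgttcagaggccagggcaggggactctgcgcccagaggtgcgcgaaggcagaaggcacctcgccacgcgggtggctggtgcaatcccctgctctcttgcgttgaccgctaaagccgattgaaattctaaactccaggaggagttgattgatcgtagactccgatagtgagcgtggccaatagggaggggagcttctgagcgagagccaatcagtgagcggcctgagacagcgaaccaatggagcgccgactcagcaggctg
TGATGNAA was searched on both strands in the 11 windows of the 9 genes the table holds, together with CACGTG, the E-box bound by MYC and related factors. The motifs can overlap in the letters TG, and no window of these genes held both. TGATGNAA occurred in 1 gene, Asns, as TGATGAAA starting at position -23 from the start, and in 3.97% of all 32851 promoter windows of this length (4.51% of all genes with a window). CACGTG occurred in 0 of the 9 genes and in 7.15% of all windows (8.09% of all genes with a window). With 9 genes, counts of 0 and 1 cannot be told from these shares. A match is a run of letters and not a measured site.

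At day 1, GFP-positive TRM were set against GFP-negative TRM to find transcripts that go with recent receptor signalling. Both transporter chains and Mthfd2 were higher in GFP-positive cells over both arms, while the 3 genes of serine synthesis itself passed the test in neither direction. Of the 9 genes other than Bcat1, 3 were called, 3 higher and 0 lower, where 12.1% of all genes were called (5.59% higher, 6.51% lower). Their median log2 difference was 0.69, and that over all genes tested was -0.03. The GFP-positive and GFP-negative libraries did not overlap in 11.1% of all genes tested (4.49% with GFP-positive above).

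Slc3a2 (ENSMUSG00000010095.13; chromosome 19, 8706882 to 8723369, GRCm38), the heavy chain, had 1463 and 1620 CPM in arm II and 1711 and 1547 CPM in arm I GFP-positive cells, against 983 and 1333 CPM in arm II and 966 and 918 CPM in arm I GFP-negative cells. The 4 GFP-positive libraries lay above the 4 GFP-negative ones (0.73 ± 0.12, adjusted p = 0.00021). The light chain gene Slc7a5 (ENSMUSG00000040010.10; chromosome 8, 121881150 to 121907694) had 104 and 93.0 CPM in arm II and 100.3 and 104 CPM in arm I GFP-positive cells, against 40.5 and 20.6 CPM in arm II and 78.5 and 92.4 CPM in arm I GFP-negative cells. The groups again did not overlap (1.10 ± 0.23, adjusted p = 0.00278), and the spread was wide in GFP-negative cells only: GFP-positive libraries sat within 92.9 to 104 CPM and GFP-negative ones between 20.6 and 92.4 CPM.

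Mthfd2 (ENSMUSG00000005667.8; chromosome 6, 83305691 to 83325908), the mitochondrial dehydrogenase of the folate pathway, had 57.3 and 79.5 CPM in arm II and 57.7 and 54.4 CPM in arm I GFP-positive cells, against 20.9 and 21.4 CPM in arm II and 36.2 and 38.3 CPM in arm I GFP-negative cells. It was higher by 1.27 ± 0.23 (adjusted p = 0.000671), without overlap. Bcat1 (ENSMUSG00000030268.17; chromosome 6, 144993835 to 145076184), the cytosolic branched-chain aminotransferase, was near absent outside GFP-positive cells. It had 16 and 30 counts in arm II and 96 and 94 counts in arm I GFP-positive cells (4.90 to 14.9 CPM), against 1 and 0 counts in arm II and 0 and 0 counts in arm I GFP-negative cells. These GFP-positive libraries are the ones that carried it through the filter. Over both arms 236 counts stood against 1, a ratio of 195 with a 95% interval of 34.7 to 7735 that covers counting error only. In arm I, with a floor of 3 counts over the group at 0, Bcat1 was at least 52.1-fold higher in GFP-positive cells. The calls of Slc3a2, Slc7a5 and Mthfd2 held with each of the 8 day 1 libraries left out in turn.

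Shmt2, which starts the mitochondrial branch, stood at 87.0 to 115.8 CPM in GFP-positive cells, against 42.1 to 110.5 CPM in GFP-negative cells, and the groups overlapped (0.57 ± 0.19, adjusted p = 0.0527; DESeq2 gave 0.0265). Asns, asparagine synthetase, stood at 14.1 to 29.5 CPM against 1.64 to 27.2 CPM (1.10 ± 0.45, adjusted p = 0.127). Psat1 stood at 19.4 to 66.1 CPM in GFP-positive cells against 3.68 to 96.3 CPM in GFP-negative cells, so that the GFP-negative libraries reached both lower and higher (0.43 ± 0.29, adjusted p = 0.388). The Psat1 and Asns values depended on 1 library. Without arm II GFP-negative replicate B, Psat1 was higher by 1.24 (adjusted p = 0.00452) and Asns by 2.04 (adjusted p = 0.011), and without replicate A Shmt2 was higher by 0.71 (adjusted p = 0.0341). Phgdh (-0.58 ± 0.37, adjusted p = 0.345), Psph (-0.82 ± 0.39, adjusted p = 0.192) and the cytosolic gene Shmt1 (0.69 ± 0.58, adjusted p = 0.509) were not called.

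**Figure D1:**
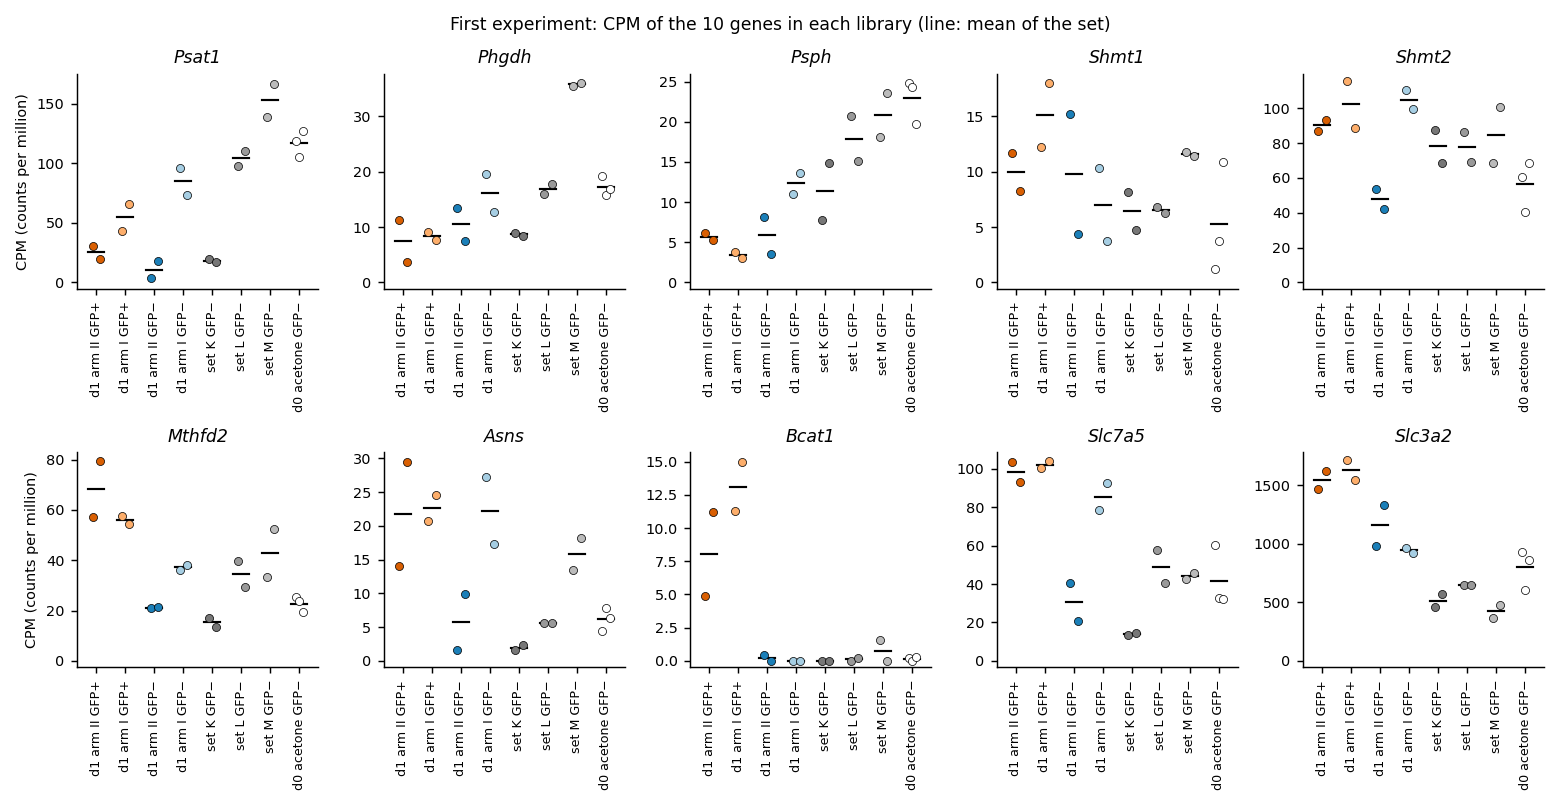
Level of each of the 10 genes in CPM (vertical axes) in every library of the first experiment, 1 panel per gene, 1 point per library and a line at the mean of each set, grouped by sorted set with GFP-positive sets left of GFP-negative ones and day 0 acetone last. Slc3a2 stood at 1463 to 1711 CPM in the 4 GFP-positive libraries, above all others, and Psat1 at 3.68 and 17.9 CPM in arm II GFP-negative cells, against 96.3 and 73.4 CPM in arm I GFP-negative cells.

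Each arm was then taken alone. In arm II (8.07% of all genes called, 4.06% higher and 4.01% lower) 3 of the 9 rose in GFP-positive cells: Mthfd2 by 1.80 ± 0.34 (adjusted p = 0.00184), Slc7a5 by 1.79 ± 0.34 (adjusted p = 0.00218) and Shmt2 by 1.02 ± 0.27 (adjusted p = 0.0237). The Shmt2 call was lost without GFP-negative replicate B (adjusted p = 0.149), GFP-positive replicate A (0.0581) or GFP-positive replicate B (0.101). Without GFP-negative replicate B, Psat1 (2.89, adjusted p = 0.000766), Asns (3.84, 0.0119) and Slc3a2 (0.77, 0.02) were called in arm II as well, against 1.33, 2.01 and 0.52 with all libraries (adjusted p 0.0611 to 0.0726). In arm I (5.36% of all genes called, 2.33% higher and 3.03% lower) Slc3a2 was higher by 0.95 ± 0.17 (adjusted p = 0.00109), 1 of the 9. Slc7a5 differed by 0.42 ± 0.32 in arm I (adjusted p = 0.588) and Mthfd2 by 0.75 ± 0.31 (adjusted p = 0.225), while Psph stood at 3.76 and 3.02 CPM in GFP-positive cells against 11.0 and 13.7 CPM in GFP-negative cells there (-1.69 ± 0.53, adjusted p = 0.0762; DESeq2 gave -1.73, 0.0108).

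The GFP difference itself differed between the arms in 0 of the 10 genes by edgeR (0.889% of all genes called, 0.639% larger and 0.25% smaller in arm II) and by DESeq2, with 5 at an unadjusted p under 0.05. The nearest was Psat1, whose difference was 1.79 ± 0.58 larger in arm II than in arm I (adjusted p = 0.194). It depended on 1 library: without arm II GFP-negative replicate B it came to 3.30 (adjusted p = 0.00305). With no low-count filter Psat1 was also called (adjusted p = 0.0123).

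The arms differed in the cells without GFP. Among GFP-negative cells, Psat1, Shmt2 and Slc7a5 stood lower in arm II, 3 of the 10 genes, with 6.69% of all genes called (4.7% lower, 1.98% higher). Psat1 (ENSMUSG00000024640.9; chromosome 19, 15904678 to 15947337), the aminotransferase of serine synthesis, had 3.68 and 17.9 CPM (9 and 45 counts) in arm II, against 96.3 and 73.4 CPM in arm I (-3.03 ± 0.44, adjusted p = 0.000145). It stayed called with any library left out and came to -2.32 without arm II replicate A and -4.58 without replicate B. Shmt2 (ENSMUSG00000025403.5; chromosome 10, 127517123 to 127522444) had 53.6 and 42.1 CPM in arm II against 110.5 and 99.2 CPM in arm I (-1.19 ± 0.27, adjusted p = 0.0099), and Slc7a5 had 40.5 and 20.6 CPM against 78.5 and 92.4 CPM (-1.53 ± 0.34, adjusted p = 0.00801). No library overlapped between arms for these 3 genes, nor for Psph, Mthfd2, Asns and Slc3a2, which were not called: with 2 libraries against 2, 47.5% of all genes tested did not overlap (26.6% with arm II below). The Shmt2 call was lost without arm I replicate A (adjusted p = 0.0821) or arm II replicate B (0.0917), and the Slc7a5 call without arm II replicate B (-1.13, 0.106). Asns had 1.64 and 9.92 CPM in arm II against 27.2 and 17.4 CPM in arm I (-2.003 ± 0.66, adjusted p = 0.0803; DESeq2 gave 0.034; -3.82, 0.014 without arm II replicate B), and Mthfd2 differed by -0.87 ± 0.33 (adjusted p = 0.133). Slc3a2 differed the other way, at 983 and 1333 CPM in arm II against 966 and 918 CPM in arm I (0.24 ± 0.17, adjusted p = 0.44).

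Beside these values, arm II GFP-negative libraries held 2442825 and 2519106 counts, against 5440609 and 6741144 in arm I GFP-negative cells. They had 416 to 554 CPM of keratinocyte markers, against 2375 to 2649 CPM in arm I GFP-negative cells, and 33.2 to 49.2 CPM of phagocyte markers, against 831 to 845 CPM. Of the tested keratinocyte markers 10 of 14 were called lower in arm II GFP-negative cells, and 5 of 11 T cell markers were too. The proliferation list, of 20 cell cycle genes, summed to 590 to 606 CPM in arm II GFP-negative cells against 1420 to 1509 CPM in arm I, with 12 of 20 called lower, among them Stmn1, which destabilises microtubules (-3.08 ± 0.23, adjusted p = 2.44e-08), and Top2a, topoisomerase II alpha (-5.34 ± 0.53, adjusted p = 1.21e-06). What part these have in the gene differences was not tested.

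In GFP-positive cells 0 of the 10 genes differed between the arms by edgeR (3.17% of all genes called, 0.923% higher and 2.24% lower), with 1 at an unadjusted p under 0.05 and 1 called by DESeq2. That gene was Psat1, at 31.0 and 19.4 CPM in arm II against 43.6 and 66.1 CPM in arm I (-1.24 ± 0.40, adjusted p = 0.109; DESeq2 gave -1.20, 0.0457, and no low-count filter 0.00473). Slc7a5 (-0.17 ± 0.32), Slc3a2 (-0.19 ± 0.16) and Mthfd2 (0.18 ± 0.31) lay within 1 SE or little more of 0.

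Against the TRM of day 0 acetone, GFP-positive cells of day 1 held 5 of the 9 genes other than Bcat1 higher and 2 lower, where 25.6% of all genes were called (10.8% higher, 14.7% lower). Shmt2, Mthfd2, Asns and both transporter chains rose, and 2 of the 3 genes of serine synthesis fell. The median log2 difference was 1.31 over the 9 genes and -0.18 over all genes, so values read about that shift. The libraries of these groups did not overlap in 32.2% of all genes tested (8.83% with GFP-positive above, 23.4% with it below). This comparison and the next share the day 0 libraries.

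Slc3a2 had 1463 to 1711 CPM in the 4 GFP-positive libraries, against 927, 603 and 861 CPM at day 0 (1.31 ± 0.13, adjusted p = 3.04e-07). Slc7a5 had 93.0 to 104 CPM against 60.5, 32.9 and 32.1 CPM (1.58 ± 0.26, adjusted p = 0.00012), Mthfd2 54.4 to 79.5 CPM against 25.3, 23.6 and 19.5 CPM (1.74 ± 0.26, adjusted p = 3.67e-05), and Shmt2 87.0 to 115.8 CPM against 60.3, 40.2 and 68.5 CPM (1.10 ± 0.21, adjusted p = 0.00048). For all 4 genes each GFP-positive library lay above each day 0 library. Asns (ENSMUSG00000029752.12; chromosome 6, 7675169 to 7693254) had 14.1 to 29.5 CPM in GFP-positive cells against 4.48, 7.88 and 6.31 CPM at day 0 (2.12 ± 0.51, adjusted p = 0.00396). Bcat1 had 236 counts in the 4 GFP-positive libraries against 2 in the 3 day 0 libraries, a ratio of 87.5 with a 95% counting interval of 24.0 to 726.5, given as a description.

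Psph (ENSMUSG00000029446.14; chromosome 5, 129765558 to 129787449), the last enzyme of serine synthesis, had 6.13 and 5.23 CPM in arm II and 3.76 and 3.02 CPM in arm I GFP-positive cells, against 24.9, 24.4 and 19.8 CPM at day 0 (-2.08 ± 0.40, adjusted p = 0.000628). Psat1 had 31.0 and 19.4 CPM in arm II and 43.6 and 66.1 CPM in arm I GFP-positive cells, against 119, 105 and 127 CPM at day 0 (-1.34 ± 0.29, adjusted p = 0.00185). Neither group of libraries overlapped with day 0. Phgdh, which commits carbon to the pathway, had 3.73 to 11.3 CPM against 19.2, 15.8 and 16.9 CPM, also without overlap, and did not pass (-0.81 ± 0.38, adjusted p = 0.133; -1.31, 0.0315 without arm II GFP-positive replicate A). Shmt1 had 8.21 to 18.0 CPM against 1.22, 3.72 and 10.9 CPM (1.56 ± 0.65, adjusted p = 0.0869; 2.46, 0.0222 without day 0 replicate C).

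These 7 calls held with each of the 7 libraries left out. With arm II alone (18.9% of all genes called, 8.39% higher and 10.5% lower), an alternative chosen after seeing the data, the 7 were called again. With arm I alone (19% called, 9.92% higher and 9.07% lower) 6 were, and Psat1 stood at -0.72 ± 0.35 (adjusted p = 0.172), while Psph stood at -2.40.

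Markers of other cells moved with this comparison. The keratinocyte markers summed to 612 to 1624 CPM in GFP-positive cells against 3194 to 3894 CPM at day 0, with 10 of 14 tested lower and 3 higher, and 5 of 6 fibroblast markers were lower. The T cell markers summed to 7403 to 8724 CPM against 13400 to 15770 CPM, with 8 of 11 lower and 1 higher. Of the phagocyte markers 5 of 11 were higher and 1 lower. What part these have in the gene differences was not tested.

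**Figure D2:**
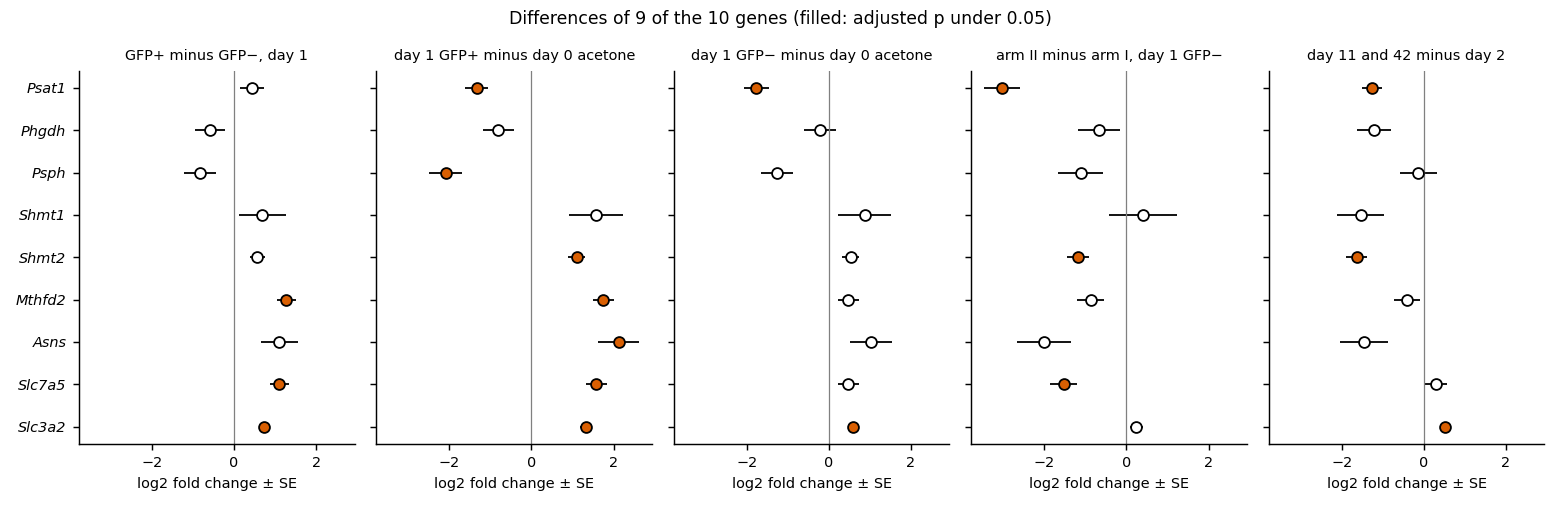
Log2 fold change with its SE (horizontal axes) of 9 of the 10 genes (rows; Bcat1, near 0 in several sets, is left out) in 4 comparisons of the first experiment and 1 of the second, with filled points for an adjusted p under 0.05. Against day 0 acetone, GFP-positive cells held Mthfd2 at 1.74 and Slc3a2 at 1.31 and Psat1 at -1.34 and Psph at -2.08.

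In GFP-negative cells of day 1 the change from day 0 acetone depended on the arm. Over both arms 2 of the 9 genes were called (7.02% of all genes, 3.12% higher and 3.91% lower; median of all genes -0.12). Psat1 was lower, at 3.68 to 96.3 CPM against 105 to 127 CPM (-1.77 ± 0.30, adjusted p = 0.000945; -2.56 without arm II replicate B), and Slc3a2 higher, at 918 to 1333 CPM against 603 to 927 CPM with 1 day 0 library within the GFP-negative range (0.58 ± 0.13, adjusted p = 0.00739). The Slc3a2 call was lost without day 0 replicate B (0.42, adjusted p = 0.0827). Psph had 3.57 to 13.7 CPM in GFP-negative cells against 19.8 to 24.9 CPM at day 0, without overlap, as in 15.2% of all genes tested (-1.26 ± 0.40, adjusted p = 0.0606; DESeq2 gave 0.00901 and median-of-ratios scaling 0.0484). Of the markers, 9 of 14 for keratinocytes, 3 of 6 for fibroblasts and 6 of 11 for T cells were lower in GFP-negative cells of day 1 than at day 0, and 1 for keratinocytes, 1 for T cells and 2 of 5 for neutrophils were higher. Their part was not tested.

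The arms were therefore also set against day 0 one at a time, again chosen after seeing the data. In arm I GFP-negative cells (3.94% of all genes called, 2.78% higher and 1.16% lower) Shmt2 (1.12 ± 0.23, adjusted p = 0.00736), Slc7a5 (1.24 ± 0.29, adjusted p = 0.0166) and Asns (2.03 ± 0.56, adjusted p = 0.0471) were higher than at day 0. Psat1 stood at -0.25 ± 0.34 (adjusted p = 0.81) and Slc3a2 at 0.46 ± 0.15 (adjusted p = 0.0996) there, and neither was called. In arm II GFP-negative cells (8.63% called, 3.48% higher and 5.15% lower) Psat1 (-3.28 ± 0.42, adjusted p = 3.86e-05) and Psph (-1.82 ± 0.52, adjusted p = 0.0336) were lower, Slc3a2 was higher by 0.70 ± 0.15 (adjusted p = 0.00512), and Shmt2 (-0.07), Mthfd2 (0.04), Asns (0.02) and Slc7a5 (-0.29) were not called. The mean over both arms thus lies between arms that differ for Psat1, Shmt2 and Slc7a5, as tested above.

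Set against all day 0 and day 6 GFP-negative libraries, GFP-negative cells of day 1 had 3 of the 10 genes called (11.1% of all genes, 6% higher and 5.11% lower). Slc3a2 was higher, at 918 to 1333 CPM in the 4 day 1 libraries against a lowest value of 368, a median of 603 and a highest of 927 CPM in the 9 others (0.96 ± 0.10, adjusted p = 1.45e-06). Psat1 was lower (-1.23 ± 0.26, adjusted p = 0.00377), but with arm I alone it came to 0.29 (adjusted p = 0.667). Slc7a5 was higher by 0.72 ± 0.20 (adjusted p = 0.0232), but came to -0.05 with arm II alone (adjusted p = 0.986), to 0.32 without set K (0.348), and lost its call in 5 of the 13 fits with 1 library left out.

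The GFP-negative sets of day 0 and day 6 differed among themselves. A test for any difference among day 0 acetone and sets K, L and M called 6 of the 10 genes (9.5% of all genes): Psat1 (adjusted p = 0.000493), Slc7a5 (0.013), Slc3a2 (0.0138), Mthfd2 (0.0168), Asns (0.0338) and Phgdh (0.0483). The Phgdh call was lost with no low-count filter (adjusted p = 0.0553). Set K was low in most of them. Psat1 had 19.5 and 17.3 CPM in set K, 97.8 and 110.6 CPM in set L and 139 and 167 CPM in set M, against 119, 105 and 127 CPM at day 0. Slc7a5 had 13.3 and 14.6 CPM in set K, 57.6 and 40.3 CPM in set L and 42.4 and 45.9 CPM in set M, against 60.5, 32.9 and 32.1 CPM at day 0. Asns had 1.56 and 2.37 CPM in set K, 5.55 and 5.63 CPM in set L and 13.5 and 18.2 CPM in set M, against 4.48, 7.88 and 6.31 CPM at day 0. Of the 6 genes called, both libraries of set K were the lowest of the 9 for Psat1, Slc7a5, Asns, Mthfd2 and Phgdh. Both of set M were the highest for Psat1, Asns and Phgdh.

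Phgdh (ENSMUSG00000053398.11; chromosome 3, 98313170 to 98339990) was also highest in set M, at 35.4 and 36.0 CPM, with 8.98 and 8.47 CPM in set K and 15.98 and 17.8 CPM in set L, against 19.2, 15.8 and 16.9 CPM at day 0. Slc3a2 did not share this order: it was lowest in set M (368 and 481 CPM), which overlapped with set K (456 and 572 CPM), and then set L (644 and 648 CPM), against 927, 603 and 861 CPM at day 0. Psph, Shmt1, Shmt2 and Bcat1 were not called (adjusted p 0.145 to 0.628). The proliferation list summed to 882 to 966 CPM in set K, 5712 to 5713 CPM in set L and 5759 to 5870 CPM in set M, against 2749 to 3540 CPM at day 0, so that set K was low in this sum as well and sets L and M were both high. For Psat1, Asns and Phgdh no library of set L lay above the range of day 0. Mthfd2 had 17.19 and 13.55 CPM in set K, 39.55 and 29.28 CPM in set L and 33.34 and 52.24 CPM in set M. At day 0 it had 25.26, 23.63 and 19.49 CPM, so that both libraries of set L lay above day 0. Shmt2, not called, had 86.41 and 68.93 CPM in set L, against 60.29, 40.24 and 68.51 CPM at day 0. The part of the proliferation sum in these values was not tested.

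Over the 8 sets of the first experiment the set with the highest level differed by gene. The highest set mean was in arm I GFP-positive cells for Slc7a5 (102 CPM, 7.33 times the lowest, set K), Slc3a2 (1629 CPM, 3.84 times set M) and Asns (22.6 CPM, 11.5 times set K), and in arm II GFP-positive cells for Mthfd2 (68.4 CPM, 4.45 times set K). For Psat1 (153 CPM, 14.2 times arm II GFP-negative cells) and Phgdh (35.7 CPM, 4.74 times arm II GFP-positive cells) it was in set M, and for Psph (23.0 CPM, 6.78 times arm I GFP-positive cells) in day 0 acetone. Neighbours in these orders often overlap: Slc7a5 libraries of both GFP-positive sets lay between 93.0 and 104 CPM. Set means on the log2(CPM + 1) scale correlated at r = 0.93 between Asns and Slc7a5, 0.92 between Mthfd2 and Slc7a5 and 0.91 between Mthfd2 and Asns, at 0.80 between Phgdh and Psph, and at -0.81 between Psph and Slc3a2. These are descriptions over 8 sets, which differ in depth and mitochondrial share. Several of these pairs did not correlate in this way in the second experiment, as given below.

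By the same measure, over 3836 genes at 20 CPM or more, the genes most like Psat1 were Capg (r = 0.96), Cks1b (0.959), Psme1 (0.955), Top2a (0.953) and Kars (0.95). Those most like Slc7a5 were Calr (0.98), Tnfrsf18 (0.976), Slc7a1 (0.972), Manf (0.967) and Cct6a (0.966). Cct6a overlaps Psph on the opposite strand.

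Other genes of these pathways were counted in lists, to be read against the 12.1% of all genes called between GFP-positive and GFP-negative cells (5.59% higher, 6.51% lower). Among other amino acid transporters, 3 of 18 tested were higher and 1 lower in GFP-positive than in GFP-negative cells: the glutamine transporter gene Slc38a1 (1.45 ± 0.20, adjusted p = 4.73e-05), the neutral amino acid exchanger gene Slc1a5 (1.00 ± 0.16, adjusted p = 0.000163) and the cationic amino acid transporter gene Slc7a1 (1.22 ± 0.26, adjusted p = 0.00294) were higher. Of 18 enzymes of branched-chain, amide and related amino acids 3 were higher and 1 lower, with Odc1, ornithine decarboxylase, at 1.24 ± 0.15 (adjusted p = 9.36e-06) and Got1, the cytosolic aspartate aminotransferase, at 0.83 ± 0.18 (adjusted p = 0.00353). Of 17 one-carbon and folate genes 2 were higher and 0 lower, the glycine decarboxylase gene Gldc (3.89 ± 0.64, adjusted p = 0.000263) and the folate carrier gene Slc19a1 (2.01 ± 0.63, adjusted p = 0.0427), a share near that of all genes. Of 17 genes of ATF4 and the integrated stress response 4 were higher and 0 lower, with Atf3, a stress-induced factor, at 0.62 ± 0.17 (adjusted p = 0.0185). Of 20 aminoacyl-tRNA synthetase genes, which charge tRNA, 0 were called by edgeR, with 4 at an unadjusted p under 0.05 and 1 by DESeq2 (median 0.30). Myc, a transcription factor gene of cell growth, was higher (1.29 ± 0.35, adjusted p = 0.0176), the 1 of 16 growth regulators that was, with 1 lower, again near the share of all genes.

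Against day 0 acetone, where 25.6% of all genes were called (10.8% higher, 14.7% lower), 7 of 20 synthetase genes were higher and 0 lower in GFP-positive cells (median 0.89), with Aars at 1.51 ± 0.26 (adjusted p = 0.000201), Nars at 1.09 ± 0.19 (adjusted p = 0.000226) and Iars at 2.53 ± 0.52 (adjusted p = 0.00105). Of the transporters 5 were higher and 2 lower (Slc7a1 1.90, Slc38a1 1.76, Slc1a5 1.72), of the amino acid enzymes 5 and 4 (Got1 1.88, Odc1 1.53, Mat2a 1.16), of the one-carbon genes 2 and 0 (Gldc 3.59, Slc19a1 3.13), of the growth regulators 3 and 1 (Myc 3.05 ± 0.42, adjusted p = 1.83e-05) and of the stress response genes 1 and 0 (Atf4 0.74 ± 0.14, adjusted p = 0.000507). The one-carbon (2 of 17) and stress response (1 of 17) counts lay below the share of all genes and the growth regulators (4 of 16) near it. The proliferation genes went the other way: 18 of 20 fell and 0 rose in GFP-positive cells, with Stmn1 at -3.69 ± 0.16 (adjusted p = 1.97e-12). Their sum was 535 to 563 CPM in arm II and 660 to 775 CPM in arm I GFP-positive cells, against 2749 to 3540 CPM at day 0.

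In GFP-negative cells of day 1 against day 0 acetone, 4 of 20 synthetase genes were higher and 0 lower (Aars 1.51 ± 0.26, adjusted p = 0.000966), Myc was higher by 1.77 ± 0.40 (adjusted p = 0.00973), and 14 of 20 proliferation genes were lower, where 7.02% of all genes were called (3.12% higher, 3.91% lower). Between the arms in GFP-negative cells, lower genes in arm II included the mitochondrial aspartate aminotransferase gene Got2 (-1.50 ± 0.32, adjusted p = 0.00645), Ahcy of the methionine cycle (-1.35 ± 0.33, adjusted p = 0.0168) and Odc1 (-0.85 ± 0.21, adjusted p = 0.0177), 3 of 18 amino acid enzymes, where 4.7% of all genes were lower. Of the stress response genes 2 were higher in arm II GFP-negative cells (Cebpb 1.86 ± 0.21, adjusted p = 8.56e-06; Ppp1r15a 0.96 ± 0.25, adjusted p = 0.0241) and 1 was lower.

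**Figure D3:**
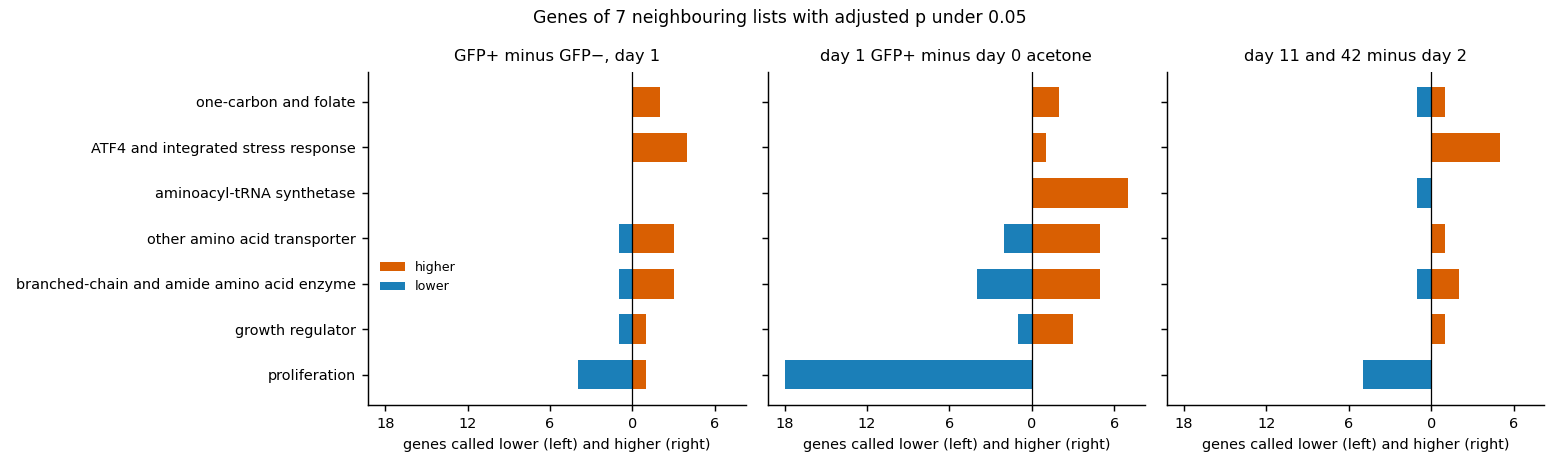
Number of genes called higher (bars to the right) and lower (bars to the left; horizontal axes, counts) in each of 7 lists (rows) for 3 comparisons. In GFP-positive cells against day 0 acetone 7 of 20 synthetase genes were higher and 18 of 20 proliferation genes lower.

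In the second experiment the CD69+CD103+ cells of day 11 and day 42 were set against those of day 2, which asked how these transcripts stand at later days after DNFB. Psat1 and Shmt2 were lower at the later days and Slc3a2 higher, 3 of the 9 genes other than Bcat1, where 8.21% of all genes were called (3.33% higher, 4.89% lower). The median log2 difference was -1.21 over the 9 genes and -0.07 over all genes. The later and day 2 libraries did not overlap in 14.5% of all genes tested (8.2% with the later ones below, 6.34% above). Treatment and day are mixed among the 8 later libraries, and day 2 cells were untreated.

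Psat1 had 74.0 and 104.5 CPM in set P, 81.1 and 40.98 CPM in set Q, 34.9 and 47.2 CPM in set R and 98.0 and 102 CPM in set S, against 173.5 and 153.7 CPM at day 2 (-1.26 ± 0.24, adjusted p = 0.00215), with no overlap. Shmt2 had 45.5 and 43.2 CPM in set P, 9.34 and 16.8 CPM in set Q, 26.9 and 40.9 CPM in set R and 64.0 and 114.6 CPM in set S, against 106.6 and 118.7 CPM at day 2 (-1.64 ± 0.25, adjusted p = 0.00027). Only set S replicate 2 reached the day 2 values. Bcat1 had 6 counts in the 8 later libraries against 123 in the 2 day 2 libraries, a ratio of 0.0277 with a 95% counting interval of 0.00999 to 0.0621, as a description, since the day 2 libraries carried it through the filter.

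Slc3a2 had 944 to 1255 CPM in the later libraries, against 798 and 680 CPM at day 2 (0.52 ± 0.14, adjusted p = 0.0247), without overlap. Its call was lost in 5 of the 10 fits with 1 library left out, with adjusted p 0.0524 to 0.0583 without set S 1, Q 2 or R 1, 0.0968 without day 2 replicate 1 and 0.471 without day 2 replicate 2. Slc7a5 had 49.6 to 172.5 CPM in the later libraries against 100.8 and 79.6 CPM at day 2 (0.29 ± 0.27, adjusted p = 0.651). Phgdh had 5.18 to 11.9 CPM against 18.6 and 18.6 CPM (-1.22 ± 0.41, adjusted p = 0.0781; DESeq2 gave 0.0483), Shmt1 1.59 to 11.4 CPM against 14.5 and 12.99 CPM (-1.54 ± 0.57, adjusted p = 0.116) and Asns 0.901 to 14.2 CPM against 19.4 and 21.2 CPM (-1.45 ± 0.58, adjusted p = 0.15). All 8 later libraries lay below day 2 for these 3 genes, as in 8.2% of all genes tested. None of the 3 passed the test, and Asns was called without set P replicate 1 (-2.05, adjusted p = 0.02). Mthfd2 (-0.41 ± 0.32, adjusted p = 0.546) and Psph (-0.14 ± 0.45, adjusted p = 0.943) were not called.

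**Figure D4:**
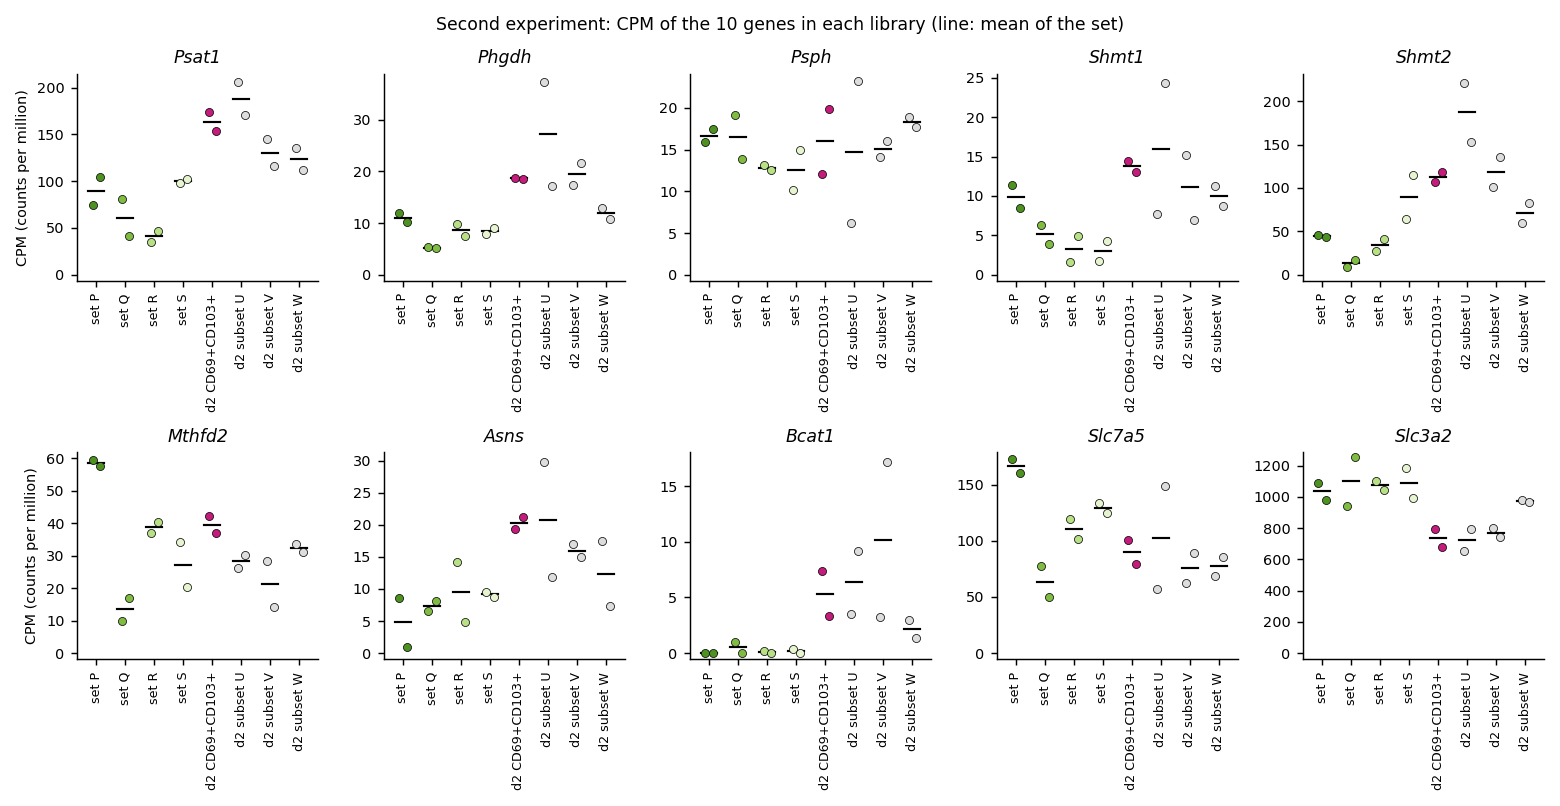
Level of each of the 10 genes in CPM (vertical axes) in every library of the second experiment, 1 panel per gene, 1 point per library and a line at the mean of each set, with the day 11 and day 42 sets left of the day 2 sets. Psat1 stood at 34.9 to 104.5 CPM in the later sets, against 173.5 and 153.7 CPM in day 2 CD69+CD103+ cells, and Slc3a2 at 944 to 1255 CPM, against 798 and 680 CPM.

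Among the 4 later sets, 1 of the 10 genes differed (2.12% of all genes called): Shmt2, lowest in set Q and highest in set S (adjusted p = 0.00364). Mthfd2 had 59.3 and 57.7 CPM in set P, 9.85 and 17.0 CPM in set Q, 37.0 and 40.4 CPM in set R and 34.0 and 20.4 CPM in set S, and missed the threshold (adjusted p = 0.0563). With no low-count filter Mthfd2 (adjusted p = 0.0119), Psat1 (0.0178) and Slc7a5 (0.0309) were called too. Slc7a5 had 172.5 and 160.4 CPM in set P against 77.5 and 49.6 CPM in set Q.

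At day 2, CD69+CD103+ cells differed from the mean of the other subsets in 0 of the 10 genes by edgeR (0.368% of all genes called, 0.319% higher and 0.049% lower), with 0 at an unadjusted p under 0.05 and 0 by DESeq2. The largest difference was that of Mthfd2, at 42.1 and 36.9 CPM in CD69+CD103+ cells against 14.2 to 33.5 CPM in the other subsets (0.60 ± 0.32, adjusted p = 0.828). Among subsets U, V and W 0 of the 10 genes were called by edgeR (0.964% of all genes), with 2 at an unadjusted p under 0.05, and DESeq2 was not run for this test. Shmt2 had 221 and 153.5 CPM in subset U, 100.6 and 135 CPM in subset V and 59.4 and 83.0 CPM in subset W (adjusted p = 0.165; 0.0137 with no low-count filter). Bcat1, near absent in most GFP-negative and later libraries, had 1.34 to 17.2 CPM in every day 2 library.

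Over the 8 sets of the second experiment, set means correlated at r = 0.90 between Phgdh and Shmt2, 0.867 between Asns and Bcat1, 0.86 between Psat1 and Shmt2, 0.855 between Phgdh and Bcat1 and 0.83 between Psat1 and Phgdh, and Slc3a2 ran against Bcat1 (-0.94) and Phgdh (-0.94). In the first experiment, Phgdh and Shmt2 stood at -0.0621, Phgdh and Bcat1 at -0.513 and Slc3a2 and Bcat1 at 0.715. Asns and Bcat1 stood there at 0.628, Psat1 and Shmt2 at 0.346, Psat1 and Phgdh at 0.755 and Slc3a2 and Phgdh at -0.713. The pairs named for the first experiment stood here at -0.545 (Asns and Slc7a5) and 0.776 (Mthfd2 and Slc7a5). Mthfd2 and Asns stood at -0.263, Phgdh and Psph at -0.179 and Psph and Slc3a2 at 0.124. Over 4657 genes, those most like Psat1 were Stat5a (r = 0.981), Myo1g (0.98), Ranbp1 (0.967), 2700094K13Rik (0.966) and Slc25a39 (0.965), and those most like Slc7a5 were Gata3 (0.969), Mfsd10 (0.944), Ganab (0.921), Arl5c (0.918) and Flot2 (0.912).

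The lists are to be read against the 8.21% of all genes called between the later days and day 2 (3.33% higher, 4.89% lower). Of the lists, 5 of 21 stress response genes were higher and 0 lower at the later days than at day 2, with Cebpb at 2.19 ± 0.22 (adjusted p = 2.85e-06), Ddit3, a stress-induced factor, at 2.28 ± 0.39 (adjusted p = 0.000817) and Atf3 at 1.17 ± 0.20 (adjusted p = 0.000924). The glutamine synthetase gene Glul was higher by 1.56 ± 0.28 (adjusted p = 0.00118) and the glutamine transporter gene Slc38a2 by 1.05 ± 0.19 (adjusted p = 0.00154, 1 of 19 transporters). Sfxn1, a mitochondrial serine carrier gene, was lower (-1.37 ± 0.36, adjusted p = 0.0217), 1 of 18 one-carbon genes, and of the 20 synthetase genes 1 was lower (Gars, -1.29 ± 0.31, adjusted p = 0.0128). The counts of 1 in the transporter, one-carbon and synthetase lists lay near the shares of all genes. Of the 20 proliferation genes 5 were lower and 0 higher. Keratinocyte markers summed to 2015 to 5348 CPM in the later sets, against 4974 to 7429 CPM in day 2 CD69+CD103+ cells, with 6 of 15 called lower and 1 higher. Neutrophil markers summed to 2.47 to 18.3 CPM in the later sets, against 122 to 131 CPM at day 2, with 2 of 4 tested called lower. Phagocyte markers summed to 267 to 968 CPM, against 471 to 525 CPM, and 3 of 11 T cell markers were higher at the later days. The part of these markers in the results was not tested.

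Reads that overlapping genes share could not be assigned, since the sources used here do not say whether counting used the strand. In GENCODE vM21 Psph overlaps Cct6a, Shmt1 overlaps Smcr8 and Gm24945, Shmt2 overlaps Ndufa4l2, Psat1 overlaps Gm3329 and Slc7a5 overlaps Gm20388, in each case on the opposite strand. Mthfd2 overlaps Gm43890 on its own strand, and Bcat1 overlaps Gm23071 on its own strand and Gm26666 and Gm15687 on the opposite one. Phgdh, Asns and Slc3a2 overlap no annotated gene, and Phgdh has a pseudogene. The levels of these genes are uncertain to that extent.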

How the data were processed

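RNA of sorted skin CD8 T cells was sequenced from the 3′ end (CEL-seq2), per the labels' protocols. The authors deposited a table of read counts for each experiment. Demultiplexing with bcl2fastq 2.2, alignment with BWA 0.7.15 to GRCm38 and HTSeq are named in the submitters' processing notes. Whether strand or molecular identifiers were used is not stated there. Gene rows were summed to library totals without spike-ins (at most 16 reads a library), and CPM was computed from these.

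The test was edgeR 4.0.16 in R 4.3.3 (filterByExpr by set, TMM, robust quasi-likelihood fit, 1 mean per set, all libraries of an experiment, no block), adjusted by Benjamini-Hochberg over all genes and tested on simulated data. The SE is the size of the log2 fold change over the square root of F. The 10 genes and all lists were chosen with earlier results of these data known. The text names the 10 genes and, per list and comparison, up to 3 called genes of smallest p. Columns were assigned by header code, and contrasts that need a named treatment were not analysed here. No source says that replicate letters mark a shared animal or day. Alternatives were DESeq2 1.42.0, median-of-ratios scaling, no low-count filter, mitochondrial transcripts left out, a replicate block, each library left out and, added after seeing the data, single arms and the omission of set K. Intervals and floors cover counting error only.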

Additional observations from a re-analysis of the deposited data

Results flagged for a closer look

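In 7 of 50 groups of 4 to 10 libraries examined, 1 library stood far from the others by Dixon's test. Chance gives about 1 in 20 groups, and several of these groups hold more than 1 set, so that a set can stand apart in them. Mthfd2 had 79.5 CPM in arm II GFP-positive replicate B, with 54.4 to 57.7 CPM in the other GFP-positive libraries of day 1. Slc3a2 had 1333 CPM in arm II GFP-negative replicate B, with 918 to 983 CPM in the other GFP-negative libraries of day 1. Slc7a5 had 148.6 CPM in day 2 subset U replicate 2, with 56.7 to 89.0 CPM in the other libraries of subsets U, V and W. Mthfd2 had 14.2 CPM in day 2 subset V replicate 2, with 26.3 to 33.5 CPM in the others. Bcat1 was near 0 in 3 flagged groups: it had 0.409 CPM (1 count) in arm II GFP-negative replicate A and 0 in the other GFP-negative libraries of day 1, 1.56 CPM in set M replicate A with 0 to 0.225 CPM in the other libraries of sets K, L and M, and 1.01 CPM in set Q replicate 1 with 0 to 0.340 CPM in the other day 11 and day 42 libraries.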

How the results depend on the processing

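Of the values of the 10 genes, 662 kept their direction and their side of the threshold under alternatives other than leaving out a library, 29 gained a call, 7 lost one and 2 turned round. With 1 library left out 734 kept both, 14 gained and 22 lost a call. The 2 that turned round were those of GFP-negative cells of day 1 against day 0 and day 6: Psat1 with arm I only (0.291) and Slc7a5 with arm II only (-0.0502). The tests for any difference among sets were not run with a library left out. Low counts limit what depth can resolve. Over the first experiment Bcat1 had 252 counts, Shmt1 764, Asns 1164, Psph 1225 and Phgdh 1462.

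DESeq2 called more genes overall: 978 against 621 for the GFP difference within arm I, 1460 against 935 within arm II (6 against 3 of the 10 genes), 299 against 103 for the difference between arms in it, 1273 against 775 between the arms in GFP-negative cells, 660 against 367 in GFP-positive cells (1 against 0 of the 10), 1259 against 814 for day 1 GFP-negative cells against day 0, and 106 against 45 for day 2 CD69+CD103+ cells against the other subsets. With no low-count filter the 10 genes had 5 calls within arm II, 1 for the difference between arms (310 of all genes), 1 for arm II against arm I in GFP-positive cells (626 of all), 1 among the other day 2 subsets (460 of all, against 118) and 4 among the day 11 and day 42 sets (943 of all, against 259), Phgdh lost its call among the day 0 and day 6 sets (adjusted p = 0.0553), and 173 genes differed between day 2 CD69+CD103+ cells and the rest. With arm I only, 812 genes, against 1287, differed between day 1 GFP-negative cells and day 0 and day 6, and 457, against 814, between them and day 0. The cause of these shifts was not tested.

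Deviations of replicate A from the set mean did not run together between sets (28 pairs of sets, r -0.145 to 0.0758, 0 over 0.1). Such values cannot exclude that a letter marks a shared animal or day, which no source states. With the replicate block 466 genes, against 814, differed between day 1 GFP-negative cells and day 0, Shmt2 was called for the GFP difference (adjusted p = 0.0477) and Shmt1 in GFP-positive cells against day 0 (2.45, adjusted p = 0.0271), and Phgdh (0.0635) and Slc3a2 (0.0618) lost their calls among the day 0 and day 6 sets.

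The counts of calls that follow include Bcat1, whose calls were partly fixed by the filter. With all libraries, the other 9 genes had 3 calls for the GFP difference over both arms and 1 within arm I. They had 7 for GFP-positive cells against day 0 and 3 for the later days against day 2. With 1 library left out the calls among the 10 genes and among all genes ranged as follows. They were 4 to 6 and 1037 to 1385 for the GFP difference over both arms, 1 to 1 and 312 to 412 within arm I, 2 to 5 and 626 to 741 within arm II, and 0 to 1 and 47 to 104 for the difference between arms. For arm II against arm I they were 2 to 3 and 356 to 556 in GFP-negative cells and 0 to 0 and 179 to 251 in GFP-positive cells. Against day 0 they were 8 to 9 and 2328 to 2581 for GFP-positive cells and 1 to 3 and 511 to 739 for GFP-negative cells, and 2 to 4 and 782 to 1232 for GFP-negative cells against day 0 and day 6. In the second experiment they were 2 to 5 and 401 to 1041 for the later days against day 2 (401 without day 2 replicate 2, 436 without replicate 1, against 1005), and 0 to 0 and 18 to 74 for day 2 CD69+CD103+ cells against the rest.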
